A study of Oreolalax rhodostigmatus with 13 samples.

Results

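Fibrinogen alpha chain and proteins of the alpha-2-macroglobulin family are described here through 4 assembled transcripts (unigenes) of the cave-dwelling toad Oreolalax rhodostigmatus, out of 249088 unigenes in the expression table. The 4 were taken by their identifiers, after earlier results had placed them among unigenes with a higher level after light exposure, so their differences between light groups are given as a description with no test. Cluster-29057.100665 has its best protein match in the fibrinogen alpha chain precursor of Xenopus laevis and is called FGA-Xl. Cluster-29057.103489 matches the predicted fibrinogen alpha chain of Xenopus tropicalis and is called FGA-Xt. Cluster-29057.119414 matches alpha-2-macroglobulin-like protein 1 of X. tropicalis and is called A2ML1-like. Cluster-29057.19291 matches C3 and PZP-like alpha-2-macroglobulin domain-containing protein 8 of X. tropicalis and is called CPAMD8-like. The names are best matches in the study's annotation, and the sequences and positions of the unigenes were not used here.

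RNA was measured in 13 wild tadpoles, 1 library each, all labelled Gosner stage 25, an early free-feeding larval stage. The control group (n = 4) was killed on collection from the dark zone of the cave, the short-term exposed group (n = 6) once the light had lasted 4 h, and the long-term exposed group (n = 3) once it had lasted 30 h. Exposed tadpoles were kept in a cage at the cave entrance, with a lamp during the night, whereas controls were not caged, so light, caging and time of day cannot be told apart. The labels name skin, eyeball and liver, and the study's methods add tail. These tissues of a tadpole were pooled, so a change in the share of a tissue or cell type and a change in RNA per cell cannot be told apart.

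Fibrinogen is a soluble plasma protein made by the liver from alpha, beta and gamma chains, and thrombin cuts its alpha and beta chains so that it assembles into fibrin, the mesh of a clot. Alpha-2-macroglobulin and its relatives are large proteins, many of which trap proteases after a protease cuts their bait region. In humans A2ML1 is known as a protease inhibitor of the outer skin layers, and CPAMD8, a relative of complement C3, is known for a role in the development of the front of the eye. Their roles in this species were not examined.

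Levels are FPKM, fragments scaled to the length of the unigene and to the total mapped fragments of the library. The FPKM of a library summed to between 983190 and 1070969. Low unigenes, whose FPKM were taken to come in steps of single reads, gave estimates of relative sequencing depth, where 1 is the median library. These were between 0.828 and 1.05 in control, 0.891 and 1.09 in short-term exposed and 0.970 and 1.25 in long-term exposed libraries. The search covered only a limited range around the depth of control 1, so a depth outside it would have been missed. Unigenes above 0 numbered 112990 to 134725 in control, 91929 to 136138 in short-term exposed and 140196 to 147363 in long-term exposed libraries. Counts of reads behind single FPKM values are unknown, so values near 0 are the least precise.

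FGA-Xl was low in every control, higher in most short-term exposed tadpoles and highest in all long-term exposed tadpoles. In controls 1 to 4 it was at 0.52, 0.38, 0.78 and 0.31 FPKM. In the short-term exposed group the lowest tadpole had 0.66, the median was 2.79 and the highest had 7.07 FPKM. Short-term exposed tadpoles 4 and 5, at 0.90 and 0.66 FPKM, were close to the controls, and the other 4 exceeded every control more than 3-fold. In the long-term exposed group tadpoles 1 to 3 had 20.4, 10.5 and 11.6 FPKM, above all 10 other tadpoles. Group means were 0.498 ± 0.208 in control (SD, n = 4), 3.07 ± 2.37 in short-term exposed (SD, n = 6) and 14.2 ± 5.42 FPKM in long-term exposed tadpoles (SD, n = 3). The control and short-term exposed ranges overlapped only through short-term tadpole 5 and control 3.

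FGA-Xt had a wider fold range than FGA-Xl within the short-term exposed group, while the SD of FGA-Xl was the larger in FPKM. In controls 1 to 4 it was at 0.98, 0.28, 1.19 and 0.67 FPKM. Short-term exposed tadpoles had a lowest value of 0.07, a median of 2.31 and a highest value of 5.00 FPKM, a 71.4-fold range, compared with a 10.7-fold range for FGA-Xl in the same animals. Short-term tadpoles 1, 2 and 6, with 3.98, 5.00 and 3.80 FPKM, lay above every control, while tadpole 3 (0.82 FPKM) lay within the control range and tadpoles 4 (0.07 FPKM) and 5 (0.14 FPKM) below it. In the long-term exposed group tadpoles 1 to 3 had 41.2, 17.6 and 19.1 FPKM. Group means were 0.780 ± 0.396 in control (SD, n = 4), 2.30 ± 2.20 in short-term exposed (SD, n = 6) and 26.0 ± 13.2 FPKM in long-term exposed tadpoles (SD, n = 3). The means of control and short-term exposed tadpoles differed by less than the SD of the short-term exposed group.

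A2ML1-like was at a like level in control and short-term exposed tadpoles and was higher after 30 h, with little spread between the long-term exposed animals. In controls 1 to 4 it was at 0.38, 0.48, 0.14 and 0.31 FPKM. The short-term exposed tadpoles had a lowest value of 0.10, a median of 0.295 and a highest value of 0.75 FPKM. Only short-term tadpole 1, at 0.75 FPKM, exceeded every control. In the long-term exposed group tadpoles 1 to 3 had 5.20, 5.29 and 6.01 FPKM, a 1.16-fold range. Group means were 0.328 ± 0.143 in control (SD, n = 4), 0.332 ± 0.249 in short-term exposed (SD, n = 6) and 5.50 ± 0.444 FPKM in long-term exposed tadpoles (SD, n = 3).

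CPAMD8-like was close to the lower limit of the table before 30 h. It was listed at 0 in 3 of 4 controls and at 0.04 FPKM in control 3. Among short-term exposed tadpoles it was listed at 0 in tadpoles 3, 4 and 5 and at 0.05, 0.04 and 0.06 FPKM in tadpoles 1, 2 and 6. The long-term exposed tadpoles 1 to 3 had 0.36, 0.36 and 0.49 FPKM, with no overlap with the other groups. No fold is given because 3 of 4 controls and 3 of 6 short-term exposed tadpoles are listed at 0. CPAMD8-like entered the fit across unigenes only through the 3 long-term exposed libraries, so its difference there follows in part from the filter on low values.

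**Figure D1:**
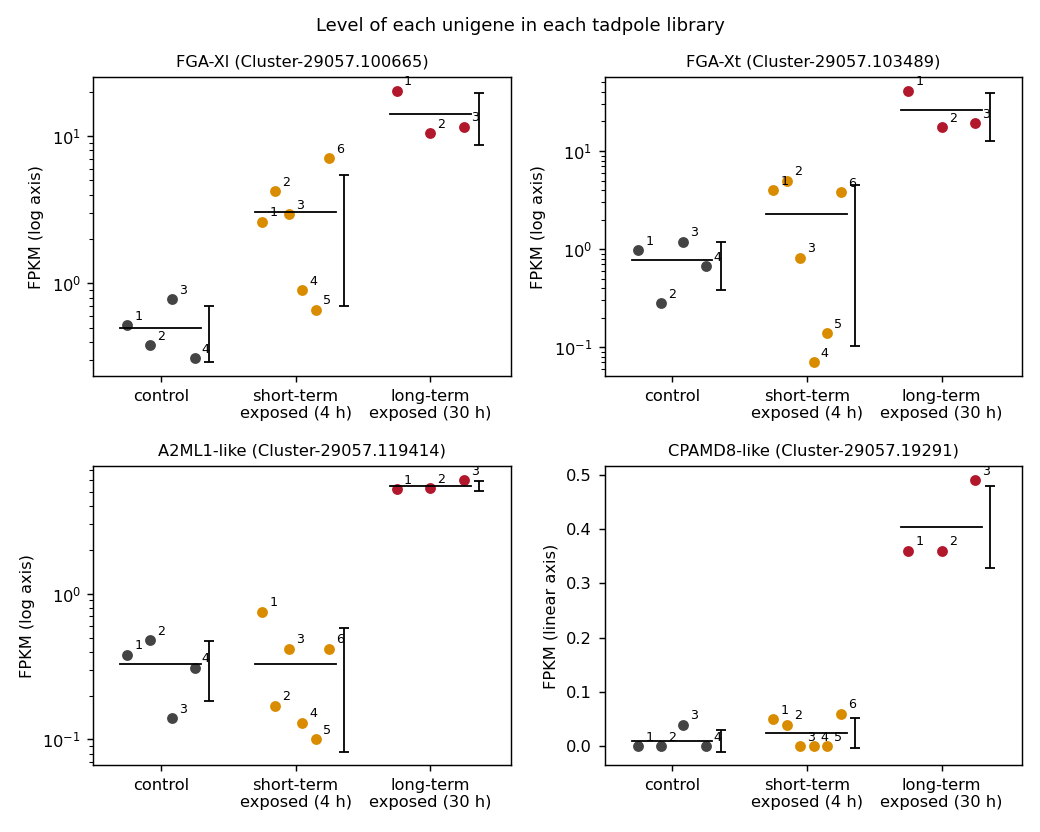
FPKM of the 4 unigenes in each tadpole, by group, with the tadpole's number beside its point; lines are group means, bars 1 SD, and the axis is logarithmic except for CPAMD8-like. The 3 long-term exposed tadpoles lie above all others in every panel, and short-term tadpoles 4 and 5 are the lowest of their group for FGA-Xl, FGA-Xt and A2ML1-like.

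On the log2(FPKM + 0.1) scale, which understates changes of unigenes near 0, long-term exposed tadpoles exceeded controls by 4.57 (SE 0.71) for FGA-Xl, 4.92 (SE 1.10) for FGA-Xt, 3.78 (SE 0.63) for A2ML1-like and 2.20 (SE 0.49) for CPAMD8-like. The ratio of group means was 28.4 for FGA-Xl, 33.3 for FGA-Xt and 16.8 for A2ML1-like. All 4 unigenes had every long-term exposed value above every control value, as did 7.71% of the 147192 unigenes tested, and nothing is read from this count because the members were chosen on the same contrast. The median difference of the 4 was 4.18, beside 0.20 over all unigenes tested, and for the same reason nothing is read from that gap.

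Short-term exposed tadpoles minus controls gave log2 differences of 2.07 (SE 0.60) for FGA-Xl, 0.59 (SE 0.93) for FGA-Xt, -0.11 (SE 0.53) for A2ML1-like and 0.17 (SE 0.42) for CPAMD8-like. Only the FGA-Xl value exceeded its standard error. None of the 4 had groups without overlap, a pattern that 0.384% of tested unigenes had in the higher direction. The median of the 4 was 0.38, beside -0.10 over all unigenes tested.

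Long-term minus short-term exposed tadpoles gave log2 differences of 2.50 (SE 0.66) for FGA-Xl, 4.32 (SE 1.02) for FGA-Xt, 3.89 (SE 0.59) for A2ML1-like and 2.03 (SE 0.46) for CPAMD8-like. The ratio of group means was 4.61 for FGA-Xl, 11.3 for FGA-Xt and 16.6 for A2ML1-like. All 4 had every long-term value above every short-term value, as did 7.00% of tested unigenes. The median of the 4 was 3.20, beside 0.23 over all unigenes tested. Nothing is read from this count or this median, because the members were chosen for a higher level after light. The comparisons share libraries, so their values are given side by side and are not independent.

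The study called unigenes light-inducible by a test that weighs differences between groups against the spread among tadpoles within groups. That spread thus entered the choice of members. A small spread, as for A2ML1-like in long-term exposed tadpoles, is therefore not free of this choice. The ratio of the fibrinogen alpha unigenes within a tadpole is also not free of the choice of members. Its difference between groups is the log2 difference of FGA-Xt minus that of FGA-Xl, and both were chosen on such differences. FGA-Xt exceeded FGA-Xl in 3 of 4 controls, with ratios of 1.88, 1.53 and 2.16 in controls 1, 3 and 4 and 0.737 in control 2. It exceeded FGA-Xl in short-term tadpoles 1 and 2, with ratios of 1.52 and 1.19, whereas short-term tadpoles 3 to 6 had ratios of 0.278, 0.0778, 0.212 and 0.537. In long-term tadpoles 1 to 3 the ratios were 2.02, 1.68 and 1.64. The short-term exposed group was thus split, with 4 of its 6 tadpoles below every control and long-term exposed tadpole.

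**Figure D2:**
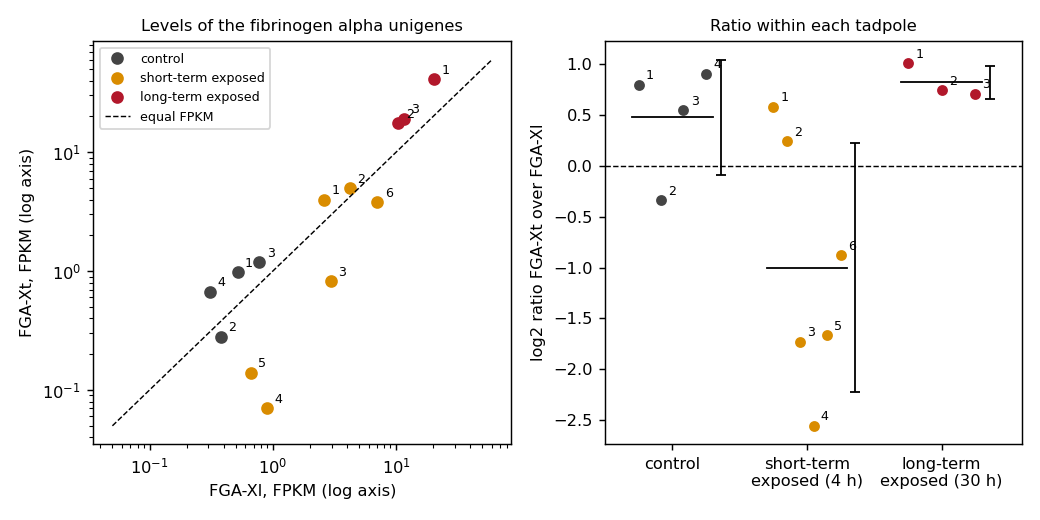
Left, FPKM of FGA-Xt against FGA-Xl in the 13 tadpoles on logarithmic axes, numbered by tadpole, with a dashed line of equal FPKM; right, the log2 ratio of FGA-Xt to FGA-Xl by group, with group means (lines), 1 SD (bars) and a dashed line at 0. Short-term tadpoles 3 to 6 lie below the line of equal FPKM, as does control 2.

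The mean log2 ratio was 0.48 ± 0.57 in control (SD, n = 4), -1.0 ± 1.22 in short-term exposed (SD, n = 6) and 0.82 ± 0.16 in long-term exposed tadpoles (SD, n = 3). The difference between long-term and short-term exposed tadpoles was 1.82, with p = 0.0476 and adjusted p = 0.10 in a two-sided exact permutation test adjusted over 3 pairs of groups. The difference between short-term exposed tadpoles and controls was -1.48 (exact permutation p = 0.0667, adjusted p = 0.10), and that between long-term exposed tadpoles and controls was 0.34 (exact permutation p = 0.457, adjusted p = 0.457). No pair passed an adjusted p of 0.05, and the smallest unadjusted p these group sizes allow is 0.0119 for the first pair, 0.00476 for the second and 0.0286 for the third. These p-values rest on group differences that were used to choose the members, so they are given as a description. Whether FGA-Xl and FGA-Xt are separate genes, alleles or pieces of 1 transcript was not tested, so the ratio compares assembled unigenes and not necessarily genes. The ratio of values near 0 is imprecise, and reads from unigenes that share sequence could have been split between them, which was not tested.

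Within the 6 short-term exposed tadpoles, 10 relations were computed, 6 between members and 4 with albumin 1 (Cluster-29057.101516), the main plasma protein made by the liver. FGA-Xl and FGA-Xt had the lowest unadjusted p, with Pearson r = 0.89 (exact permutation p = 0.0292, adjusted p = 0.278) and Spearman rho = 0.66 (exact permutation p = 0.175, adjusted p = 0.367). Without tadpoles 4 and 5, the pair farthest from the median of FGA-Xl, r was 0.39, so the relation rests on those animals. FGA-Xt and CPAMD8-like had r = 0.90 (exact permutation p = 0.0750, adjusted p = 0.278) and rho = 0.70 (exact permutation p = 0.167, adjusted p = 0.367), with 3 CPAMD8-like values tied at 0. Without tadpoles 4 and 5 its r was 0.92, a value that rests on tadpole 3 (0.82 FPKM of FGA-Xt, 0 of CPAMD8-like). In tadpoles 1, 2 and 6 CPAMD8-like was at 0.05, 0.04 and 0.06 FPKM, in the reverse order of FGA-Xt. A2ML1-like had r between 0.58 and 0.65 with the other members. Without tadpoles 4 and 5 its r was -0.39 with FGA-Xl and -0.18 with FGA-Xt. Without tadpoles 1 and 5, the pair farthest from the median of A2ML1-like, its r with CPAMD8-like was 0.25.

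None of the 10 relations passed an adjusted p of 0.05, and 1 had an unadjusted exact permutation p under 0.05 by Pearson's r. With albumin 1, r was -0.11 for FGA-Xl, -0.0031 for FGA-Xt, -0.60 for A2ML1-like and 0.06 for CPAMD8-like, with adjusted exact permutation p between 0.306 and 0.996. Short-term tadpole 5, which had the highest albumin 1 of its group (2492 FPKM), had the lowest FGA-Xl and A2ML1-like. Without that tadpole r with albumin 1 was 0.63 for FGA-Xl, 0.59 for FGA-Xt and 0.57 for CPAMD8-like, so these values depend on a single library.

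Unigenes listed as liver markers did not all move together with the fibrinogen unigenes. The P450 unigenes among them are named by best match, and whether they are confined to liver in this species was not tested. Albumin 1, which the study also placed among light-inducible unigenes, was at 852 to 2176 FPKM in control, 538 to 2492 in short-term exposed and 8060 to 11982 FPKM in long-term exposed tadpoles. Its log2 difference was 2.70 (SE 0.51) between long-term exposed tadpoles and controls and -0.59 (SE 0.43) between short-term exposed tadpoles and controls. A cytochrome P450 family 2 unigene (Cluster-29057.108152, CYP2A6 match), of a family of liver detoxifying enzymes, was at 0.67, 1.76 and 17.4 FPKM in long-term exposed tadpoles, against 49.6, 62.0, 67.8 and 34.4 FPKM in controls. It fell by 4.15 on the log2 scale in long-term exposed tadpoles relative to controls (SE 0.87, limma adjusted p = 0.0278). That call was lost without any one control (adjusted p 0.0504 to 0.0750), without long-term tadpole 1 (adjusted p = 0.153) or without long-term tadpole 2 (adjusted p = 0.153) in the same limma fit, while the log2 difference stayed between -5.44 and -3.18 with any one library left out.

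A further P450 unigene (Cluster-29057.95550, CYP2C55 match) was at 15.0, 20.1 and 34.7 FPKM in long-term exposed tadpoles, against 66.2 to 123 FPKM in controls, a log2 difference of -1.93 (SE 0.50, limma adjusted p = 0.0797). It passed the threshold without short-term tadpole 3 (adjusted p = 0.0456), which enters the shared estimate of spread. The last P450 unigene of the list (CYP2C8 match) was listed at 0 in 8 of 13 libraries. Its log2 difference between long-term exposed tadpoles and controls was 0.10 (SE 0.87), so it did not fall with the other P450 unigenes. Over the 4 hepatocyte markers the summed FPKM, most of it albumin 1, was 961 to 2361 in control, 575 to 2635 in short-term exposed and 8076 to 12034 in long-term exposed libraries.

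Some markers of other cell types were also higher in the 30 h group, and each of these had been chosen by the study. The white blood cell marker PTPRC and the skeletal muscle marker TNNI1 had not been chosen. Their log2 differences between long-term exposed tadpoles and controls were -0.97 (SE 0.93) and -0.05 (SE 1.31). The summed FPKM of 3 blood and immune cell markers was 5.86 to 9.43 in control, 3.53 to 13.9 in short-term exposed and 35.5 to 63.4 in long-term exposed libraries. Of these, macrophage mannose receptor 1 and fermitin 3 were higher after 30 h and were chosen by the study, while PTPRC (CD45), the general white blood cell marker, was at 1.47, 0 and 0.57 FPKM in long-term exposed tadpoles, against 0.43 to 2.03 FPKM in controls. The lens marker crystallin gamma E, likewise chosen by the study, was at 0 to 1.04 FPKM in control and 0.66 to 2.15 FPKM in short-term exposed tadpoles. In long-term exposed tadpoles it was at 6.77 to 7.83 FPKM. The skeletal muscle marker TNNI1 was listed at 0 in 7 of 13 libraries and did not exceed 2.18 FPKM. The part of these markers in the levels of the 4 unigenes was not tested.

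Relative to albumin 1 in the same library, the order of the group medians changed for both fibrinogen unigenes, with the short-term exposed group highest. FGA-Xl had 1.75 to 4.05 FPKM per 10000 FPKM of albumin 1 in controls. In short-term exposed tadpoles its median was 35.5 with a range of 2.65 to 60.2. In long-term exposed tadpoles its median was 11.2 with a range of 9.71 to 25.3. FGA-Xt had 1.29 to 7.86 in controls, a median of 22.1 with a range of 0.562 to 70.9 in short-term exposed tadpoles, and a median of 18.8 with a range of 16.0 to 51.1 in long-term exposed tadpoles. By mean, FGA-Xt was still highest in long-term exposed tadpoles, at 28.6 against 24.9 in short-term exposed tadpoles. Both fibrinogen unigenes were thus above every control in the 3 long-term exposed tadpoles on this scale, and the long-term values lay inside the short-term range. A2ML1-like had 0.681 to 3.64 in controls, 0.401 to 13.4 in short-term exposed and 5.02 to 6.45 in long-term exposed tadpoles. CPAMD8-like had 0 to 0.194 in controls, 0 to 0.891 in short-term exposed and 0.385 to 0.447 in long-term exposed tadpoles. This scaling was chosen after the data were seen.

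**Figure D3:**
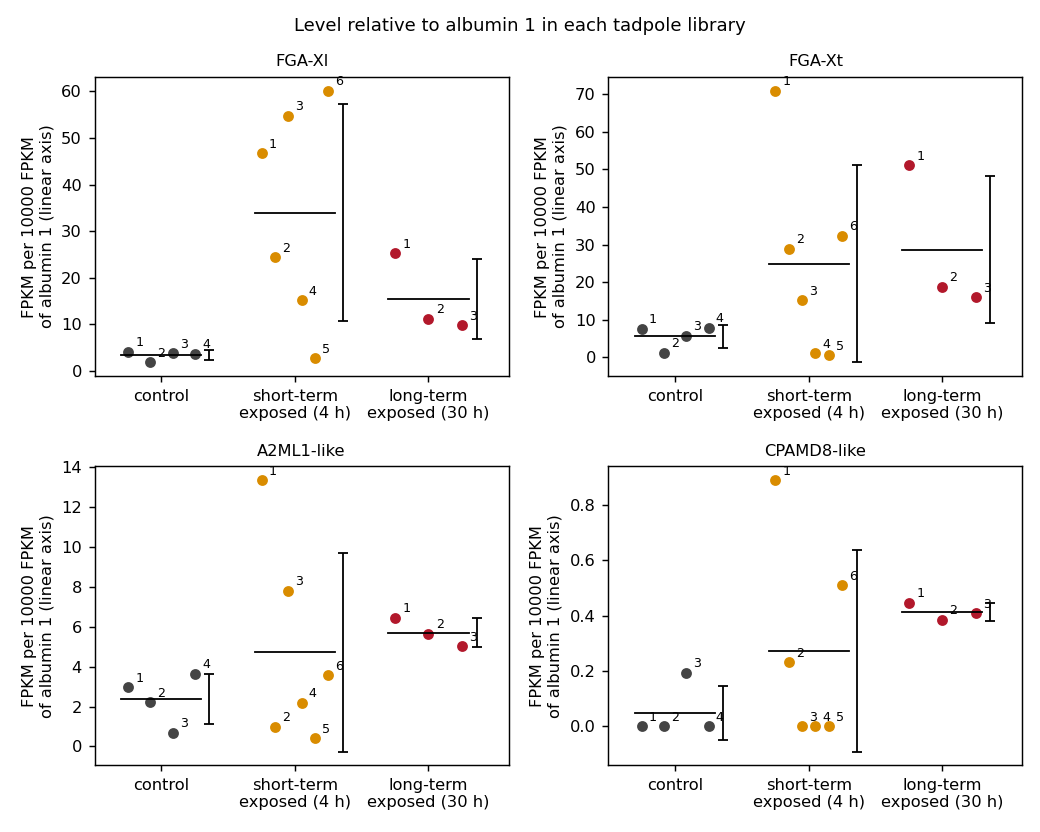
FPKM of each unigene per 10000 FPKM of albumin 1 in the same tadpole, on linear axes, numbered by tadpole; lines are group means and bars 1 SD. The 3 long-term exposed tadpoles lie above all controls in every panel and within the range of the short-term exposed tadpoles.

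Other parts of the clotting and complement system are described from 13 further unigenes that the study assigned to the complement and coagulation pathway. Of these, 9 passed the filter on low values, and 5 were called higher by limma (adjusted p under 0.05) in long-term exposed tadpoles than in controls, where 0.975% of all tested unigenes were called higher and 0.399% lower. None of the 9 was called lower. The 5 called were fibrinogen beta chain, CPB2, the unnamed Cluster-29057.98914 and the unigenes named as isoforms X1 and X4 of VSIG4. Whether the VSIG4 unigenes come from separate genes was not tested. CPB2 and the unnamed Cluster-29057.98914, 2 of the 5 called, passed the filter only through the 3 long-term exposed libraries, so they had to differ and the count holds no support from them. The study chose these 13 as light-inducible on these same tadpoles, so the count is no independent evidence of direction. Fibrinogen beta chain (FGB, Cluster-29057.101778), a partner of the alpha chain in fibrinogen, was at 12.5, 3.02 and 5.58 FPKM in long-term exposed tadpoles, against 1.15, 0.39, 1.05 and 0.34 FPKM in controls. Its short-term exposed values had a lowest of 0.84, a median of 2.04 and a highest of 2.77 FPKM. As for FGA-Xl, its short-term range overlapped the control range at the low end, and long-term tadpole 1 was the highest of all.

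CPB2, a carboxypeptidase that slows the breakdown of fibrin, was listed at 0 in every control and short-term exposed tadpole and was at 1.07, 0.90 and 1.01 FPKM in long-term exposed tadpoles 1 to 3. F13A1, the transglutaminase subunit that cross-links fibrin, was at 0.61, 0.29 and 0.53 FPKM in long-term exposed tadpoles, against 0 in every control and, among short-term exposed tadpoles, 0.08 FPKM in tadpole 2 and 0 in the rest. A further fibrinogen alpha unigene, whose best match is bovine (Cluster-871.0), was listed at 0 in every control and short-term exposed tadpole, and in long-term exposed tadpoles it was at 0.41, 0.54 and 0.23 FPKM. Neither this unigene nor F13A1 passed the filter on low values, so they were not tested. Complement factor H, an inhibitor of complement, was at 7.30, 8.97 and 3.16 FPKM in long-term exposed tadpoles, against 1.60 FPKM in control 3 and 0 in the other controls. In short-term tadpoles 1 and 3 complement factor H was at 1.46 and 1.53 FPKM, and it was listed at 0 in the rest of that group. It was not called between long-term exposed tadpoles and controls (limma adjusted p = 0.0874). CD109 (Cluster-29057.98458), a relative of alpha-2-macroglobulin held at the cell surface, was at 0.45, 0.88 and 0.60 FPKM in long-term exposed tadpoles, against 0 to 0.14 FPKM in short-term exposed tadpoles, and 0.06 FPKM in control 2 with 0 in the other controls. It too was chosen by the study, and it passed the filter only through the long-term exposed libraries.

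A list that the study had not chosen by expression is given beside these. It holds 6 plasma and clotting unigenes and 4 unigenes of liver-secreted proteins from the study's list of growth factor-related genes. Of these, 8 passed the filter. In long-term exposed tadpoles relative to controls, limma called 0 of 8 in either direction. Over all tested unigenes 0.975% were called higher and 0.399% lower there, so nothing is read from the 0. At an unadjusted p under 0.05, 2 were higher and 0 lower, beside 7.27% higher and 5.01% lower among all unigenes tested. Their median log2 difference was 1.43, beside 0.20 over all unigenes tested. Relative to short-term exposed tadpoles, limma called 1 of 8 higher in long-term exposed tadpoles and 0 lower, where 2.09% of all tested unigenes were called higher and 0.957% lower. At an unadjusted p under 0.05, 6 of the 8 were higher in that comparison, beside 12.1% of all unigenes tested. Between short-term exposed tadpoles and controls limma called 0 of 8, where 0.0408% of all tested unigenes were called higher and 0.0401% lower. At an unadjusted p under 0.05, 0 of the 8 were higher and 1 was lower there, beside 5.9% higher and 5.05% lower among all unigenes tested.

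The unigene called was an HGF-like protein (Cluster-29057.114567), named for hepatocyte growth factor, with 41.2, 30.3 and 12.9 FPKM in long-term exposed tadpoles, against 2.34 to 6.62 FPKM in short-term exposed tadpoles. Its log2 difference was 2.39 (SE 0.52, limma adjusted p = 0.0242). The call was lost without long-term tadpole 1 (limma adjusted p = 0.129), 2 (0.125) or 3 (0.0523), while the log2 difference stayed between 2.04 and 2.87 with any one library left out. Relative to controls its log2 difference was 1.96 (SE 0.57, limma adjusted p = 0.130), and that of MST1, macrophage-stimulating protein, was 1.62 (SE 0.50, limma adjusted p = 0.167). These were the 2 unigenes of the list that were higher than in controls at an unadjusted limma p under 0.05. Whether the HGF-like, MST1 and Livertine unigenes of the list come from separate genes was not tested, so they may not be independent members of it.

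Pentraxin (Cluster-29057.104104), of a family of pattern-recognising plasma proteins, was far above the fibrinogen unigenes in level, at 3107, 916 and 997 FPKM in long-term exposed tadpoles, against 326 to 944 FPKM in controls (log2 difference 1.24, SE 1.38, limma adjusted p = 0.770). Vitronectin, an adhesive plasma protein, was at 8.16, 0.37 and 337 FPKM in long-term exposed tadpoles, so that a single animal set its mean. SERPINE2, an inhibitor of thrombin and other serine proteases, was at 15.9, 28.6 and 32.5 FPKM in long-term exposed tadpoles, against 17.8 to 33.0 FPKM in controls (log2 difference 0.02, SE 0.51, limma adjusted p = 1). Haptoglobin, a haemoglobin-binding plasma protein, was listed at 0 in every library except long-term tadpoles 1 (0.49 FPKM) and 2 (1.69 FPKM) and was not tested.

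**Figure D4:**
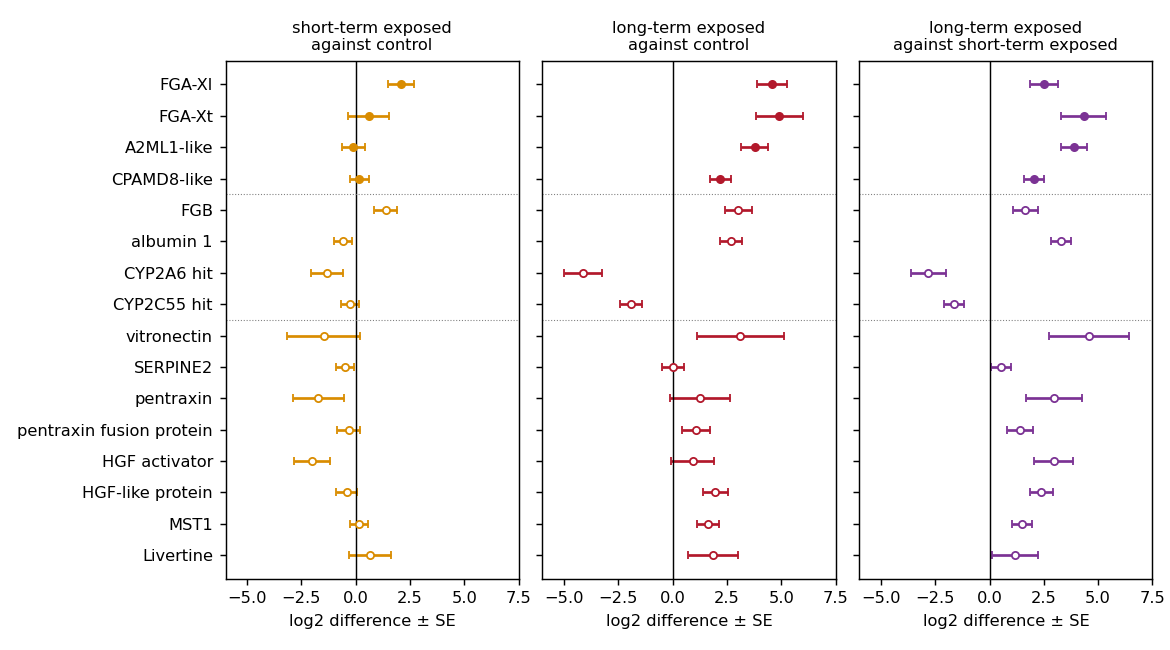
Log2 difference in FPKM + 0.1 with its SE (bars) from the limma fit for the 4 unigenes (filled points), fibrinogen beta and 3 liver markers (open points, middle), and the 8 tested unigenes of the list not chosen by expression (open points, bottom). Differences of the 4 unigenes lie between 2.20 and 4.92 for long-term exposed tadpoles against controls, while the P450 unigenes shown lie below 0. The CYP2C8 match, which is not shown, had a difference of 0.10 (SE 0.87) there.

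The unigenes whose levels were most like those of the members were found by Pearson's r of log2(FPKM + 0.1) over the 13 libraries, a description in which the group means weigh heavily. Names were at hand for only 1582 of the 249088 unigenes, from a part of the study's annotation and from unigenes used in its analysis. The latter include unigenes chosen as light-inducible on these tadpoles, so nothing is read from how many are named. A unigene without a name here may thus have one in the full annotation, and the nearest known genes may be missed. Among the 20 most alike, 7 had a name for FGA-Xl, 2 for FGA-Xt, 6 for A2ML1-like and 2 for CPAMD8-like. The first named for both CPAMD8-like (r = 0.98, rank 1) and A2ML1-like (r = 0.95, rank 4) was subunit 4 of the conserved oligomeric Golgi complex, which tethers vesicles at the Golgi. A2ML1-like was next followed by stabilin-1, a scavenger receptor (r = 0.95, rank 7), and an unnamed trout protein product (r = 0.95, rank 9). For FGA-Xl the first named were LOC733419 protein (r = 0.93, rank 5), the porphyrin transporter ABCB6 (r = 0.93, rank 6) and LOC495519 protein (r = 0.92, rank 12). FGB, the partner chain of fibrinogen, stood at rank 18 for FGA-Xl (r = 0.91). For FGA-Xt they were a hypothetical protein with a match in Plasmodiophora (r = 0.93, rank 12) and uncharacterized LOC101731243 (r = 0.92, rank 16), and for CPAMD8-like the other one was a TC1-like transposase (r = 0.98, rank 2).

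With the group means removed, so that only differences among tadpoles of a group counted, none of the 20 most alike was named for FGA-Xt, A2ML1-like or CPAMD8-like, and 1 was for FGA-Xl (ABCB6, r = 0.90, rank 19). Among all tested unigenes FGA-Xt ranked 49 for FGA-Xl, and FGA-Xl ranked 184 for FGA-Xt (r = 0.88). CPAMD8-like had r = 0.68 with FGA-Xl and 0.74 with FGA-Xt. Its control and short-term exposed values lay between 0 and 0.06 FPKM, near the lower limit of the table, so every r with it is imprecise. A2ML1-like was least like the others within groups, with r = 0.40 to FGA-Xl, 0.45 to FGA-Xt and 0.24 to CPAMD8-like.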

How the data were processed

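One RNA-seq library was made from the pooled tissues of each of 13 tadpoles. The authors removed low-quality reads, assembled all libraries de novo with Trinity and deposited FPKM per unigene with 2 decimals. For the read mapper and counter, neither name nor version is stated in the sources read here. Because FPKM are not counts, no count test was run. Groups were taken from the sample titles.

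From the deposited FPKM, log2(FPKM + 0.1) of the 147192 unigenes with at least 0.3 FPKM in at least 3 libraries was fitted over the 3 groups with limma 3.58.1 under R 4.3.3, letting the variance follow a trend on the mean, and p-values were adjusted over all of them by Benjamini-Hochberg. Members and lists were chosen with earlier results of these data known. The named genes were the members, unigene lists taken from the study's annotation, pathway and growth factor tables, and, among the 20 unigenes most alike, the first 3 that had a name. Ratios and correlations were tested with exact permutation tests (Python 3.11.15, NumPy 2.4.6, SciPy 1.17.1). Code was tested on simulated data. Alternatives were other pseudocounts, filters, scaling, a replicate block, fits of only the groups compared and leaving out single libraries.

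The highest squared correlation between libraries was 0.699 on log10(FPKM + 1), so no library was a repeat of another. Replicate numbers in the titles do not mark shared animals: across the 10 same-numbered pairs of different groups, the deviations from group means correlated between -0.11 and 0.02. P-values measure the spread between tadpoles from 1 cave collection.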

Additional observations from a re-analysis of the deposited data

Results flagged for a closer look

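In each group of 4 or 6 tadpoles, the most extreme value was compared with its nearest neighbour for the members, all listed genes and markers, and the fibrinogen ratio. Of 65 groups whose values were not all equal, 14 held a sample far from the others. The rule flags about 1 in 20 groups of normally distributed values. FPKM with many values at 0 are not of that kind, so no excess over chance is read from the count. Most of the flagged samples were a single value above 0 in a group otherwise listed at 0, which the rule always flags.

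CPAMD8-like was at 0.04 FPKM in control 3, CD109 at 0.06 FPKM in control 2, complement factor H at 1.60 FPKM in control 3, F2R at 0.19 FPKM in control 2 and fermitin 3 at 0.37 FPKM in control 4, with the other controls listed at 0. F13A1 was at 0.08 FPKM in short-term tadpole 2, F2R at 0.19 FPKM in short-term tadpole 5 and the CYP2C8 match at 0.32 FPKM in short-term tadpole 3, with the rest of the group listed at 0. Fermitin 3 was at 0.58 FPKM in short-term tadpole 3, with the next at 0.20 FPKM.

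Among higher values, vitronectin was at 9.79 FPKM in short-term tadpole 1, with the next of its group at 0.51 FPKM. Pentraxin fusion protein was at 39.9 FPKM in short-term tadpole 2, with the next at 15.2 FPKM. The unnamed Cluster-29057.104050 was at 4.62 FPKM in control 3, with the next control at 0.53 FPKM, and at 28.6 FPKM in short-term tadpole 1, with the next at 2.35 FPKM. The unnamed Cluster-29057.99734 was at 933 FPKM in short-term tadpole 2, with the next at 146 FPKM.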

How the results depend on the processing

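Over the 4 unigenes, the median log2 difference was 4.18 for long-term exposed tadpoles against controls, and it was 2.79 with a pseudocount of 1, 1.48 relative to albumin 1 and 4.05 to 4.28 with single libraries left out. For long-term against short-term exposed tadpoles it was 3.20, and it was 2.18 with a pseudocount of 1, 4.21 with 0.01, -0.10 relative to albumin 1 and 2.94 to 3.40 with single libraries left out. For short-term exposed tadpoles against controls it was 0.38, and 0.15 to 0.69 with single libraries left out. Relative to albumin 1, an alternative chosen after seeing the data, the long-term minus short-term difference was -0.79 for FGA-Xl and 1.03 for FGA-Xt. It was 0.60 for A2ML1-like and -1.27 for CPAMD8-like. The long-term minus control difference on this scale was 1.87 for FGA-Xl, 2.22 for FGA-Xt, 1.08 for A2ML1-like and -0.50 for CPAMD8-like. For CPAMD8-like the pseudocount sets the value of tadpoles listed at 0. The fibrinogen log2 ratio differed by 1.21 between long-term and short-term exposed tadpoles with a pseudocount of 1 (exact permutation adjusted p = 0.0429), and by 0.55 between long-term exposed tadpoles and controls (exact permutation adjusted p = 0.0429), so both passed the threshold only there. With single libraries left out these differences were 1.51 to 2.14 and 0.07 to 0.48, and that between short-term exposed tadpoles and controls was -1.80 to -1.17. The members were chosen on the group differences that make up this ratio, so its p-values hold no support. No correlation passed an adjusted p of 0.05 under any alternative. For the unchosen list the count called was 0 throughout, except the 1 called higher in long-term than in short-term exposed tadpoles, which was 0 without any long-term library and with the replicate block (0 to 1 with single libraries left out).

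With a replicate block the member medians were 3.96 for long-term exposed tadpoles against controls, 0.45 for short-term exposed tadpoles against controls and 2.91 for long-term against short-term exposed tadpoles. The tadpoles are separate animals that share only a number, and none of the 10 same-numbered pairs had a correlation over 0.1. The P450 call also was lost with the block (limma adjusted p = 0.125).

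Counts over all unigenes depended strongly on single libraries. Leaving aside the alternatives added after seeing the data, called higher in long-term exposed tadpoles than in controls were 1435 unigenes, with a range of 247 (without long-term tadpole 2) to 2325 (pseudocount 1). Long-term against short-term exposed tadpoles gave 3080 higher, with a range of 221 (without long-term tadpole 2) to 5066 (pseudocount 1). Short-term exposed tadpoles against controls gave 60 higher, with a range of 2 (replicate block) to 2662 (without short-term tadpole 1). Called lower were 588 (162 to 943), 1409 (115 to 2339) and 59 (1 to 482) in these comparisons. Of the alternatives added after seeing the data, leaving out tadpole 1 of both exposed groups together gave 4346 higher and 605 lower for short-term exposed tadpoles against controls. Values relative to albumin 1 gave 214 higher and 50538 lower for long-term exposed tadpoles against controls, and 115 higher and 99261 lower for long-term against short-term exposed tadpoles. Albumin 1 itself was higher by 2.70 and 3.29 on the log2 scale in these comparisons, and the scaling lowers every unigene by that amount. The many lower calls follow from this, and nothing is read from them. CPAMD8-like did not pass a filter of at least 1 FPKM, nor the main filter without any long-term library.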

Other observations

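Short-term tadpoles 3 and 4 were the lowest of their group for some abundant unigenes and the highest for SERPINE2, at 30.9 and 34.6 FPKM; these unigenes were picked after their values were seen. Pentraxin was at 10.9 and 16.1 FPKM in these animals and between 344 and 1133 FPKM in the other 4 short-term exposed tadpoles. An unnamed unigene of the complement and coagulation pathway (Cluster-29057.99734) was at 3.64 and 0.98 FPKM in them and between 87.7 and 933 FPKM in the other 4, against 92.3 to 342 FPKM in controls. Albumin 1 was at 538 and 596 FPKM in them, beside 561 FPKM in short-term tadpole 1, which had a high FGA-Xt. Another unnamed unigene of the pathway (Cluster-29057.104050) was at 28.6 FPKM in short-term tadpole 1 and at most 2.35 FPKM in the rest of its group, while long-term exposed tadpoles had 32.1 to 49.8 FPKM.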
